A study of Mus musculus with 12 samples.

Results

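Matricellular proteins are secreted into the extracellular matrix, where they bind cells, growth factors and structural fibres rather than bearing load themselves. The genes described here encode 9 such proteins or close relatives, namely periostin (Postn), osteopontin (Spp1), tenascin C (Tnc), the thrombospondins Thbs1, Thbs2, Thbs3 and Thbs4, Sparc and fibronectin (Fn1), together with the galactoside-binding lectin galectin 3 (Lgals3). They were chosen by name, with earlier results of these data known, and make up 10 of the 20775 genes listed by symbol in both expression tables. Their own differences between knockout and control are therefore given as a description, with no test.

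RNA from C57BL/6 mice with a floxed exon of Med30, which encodes a subunit of the Mediator complex that links transcription factors to RNA polymerase II, was sequenced at 2 stages. At E10.5, whole hearts of Med30 f/f embryos with Tnnt-Cre, which is driven by a cardiac troponin T promoter (cKO, n = 3 samples), were set against those of Med30 f/f littermates without Cre (Ctrl, n = 3). In adults, cardiomyocytes were isolated at about 3 months of age and 4 weeks after tamoxifen, from Med30 f/f animals with αMHC-MerCreMer, a tamoxifen-activated Cre under a cardiomyocyte promoter (icKO, n = 3), and from Med30 f/f animals that lacked Cre and were given the same tamoxifen (Ctrl, n = 3). Neither control carried Cre, so that in these RNA samples an effect of Cre, or of Cre with tamoxifen, cannot be told apart from the loss of Med30. The paper reports no deaths and no loss of heart function after tamoxifen in αMHC-MerCreMer mice without a floxed allele. RNA of such mice was not among these samples. The floxed line came from a single ES cell clone, and the labels call the controls wild type and the adult source heart.

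Levels are given as RPKM, a read density corrected for gene length and library size, as the authors deposited them. The spacing of the lowest values put the reads behind them at 13.7 to 19.98 M per sample at E10.5 and 11.97 to 17.5 M at 4 weeks. Med30 itself had RPKM of 10.6, 13.3 and 11.3 in Ctrl and 1.38, 2.02 and 1.004 in cKO at E10.5, and of 7.66, 7.45 and 7.66 in Ctrl and 3.81, 3.16 and 1.83 in icKO at 4 weeks, so its groups did not overlap at either stage. In the adult samples all 8 cardiomyocyte markers were detected in both groups. Their summed RPKM were 19343 to 20119 in Ctrl and 7198 to 9081 in icKO. Of the 8, 6 were lower in every icKO sample than in any Ctrl sample, as were 15.1% of all genes. Actn2 (log2 fold change 0.86) and Nkx2-5 (0.74) were higher in every icKO sample, as were 46.1% of all genes. The 20 most abundant genes took 24.8% to 25.4% of the RPKM in adult Ctrl and 11.5% to 13.1% in icKO, and the median log2 fold change of the 9517 genes tested was 0.57, against 0.03 when samples were scaled by median ratios. At E10.5 the median of the 10885 genes tested was −0.13, against −0.01 with that scaling.

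In the heart, periostin and tenascin C are known as products of valve and cushion mesenchyme in the embryo and of activated fibroblasts after injury, and both are low in the healthy adult muscle. Fibronectin and Sparc, a collagen-binding glycoprotein, are abundant wherever matrix is being laid down, and galectin 3 is widely used as a marker of macrophages and of fibrosis. Thrombospondins 1 and 2 bind latent growth factors and restrain vessel growth, while thrombospondins 3 and 4 form the pentameric branch of that family, with thrombospondin 4 found in striated muscle and tendon.

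Promoter sequences from RefSeq (build GRCm38.p6, 250 bases before to 50 after an annotated transcript start, on the strand of the gene) were given for 8 of the 10 genes, in 11 windows. No entry was used for Thbs1 or Fn1. The 4 windows below belong to the genes whose levels the adult results turn on: Lgals3 and Postn, which differed most on the log2 scale, Sparc, the most abundant, and Thbs4, the thrombospondin with the highest adult level. Capitals mark every match, on either strand, to 7 motifs. The TATA box was searched as TATAAA and the CCAAT box by its own letters. The GC box was searched as GGGCGG and the MCAT element, which TEAD factors bind in muscle genes, as CATTCC. The AP-1 element was searched as TGANTCA and the RUNX element as AACCACA. The CArG box of serum response factor was the last of the motifs. The windows are chr14:47373610-47373909 (Lgals3, plus strand), chr3:54360857-54361156 (Postn, plus strand), chr11:55420031-55420330 (Sparc, minus strand) and chr13:92794769-92795068 (Thbs4, minus strand). Against the first base of the gene in the annotation used for positions below, the start used was the same for Thbs4, 2 bases upstream for Postn, and inside the gene for Lgals3 (6109 bases) and Sparc (3103 bases).
Lgals3: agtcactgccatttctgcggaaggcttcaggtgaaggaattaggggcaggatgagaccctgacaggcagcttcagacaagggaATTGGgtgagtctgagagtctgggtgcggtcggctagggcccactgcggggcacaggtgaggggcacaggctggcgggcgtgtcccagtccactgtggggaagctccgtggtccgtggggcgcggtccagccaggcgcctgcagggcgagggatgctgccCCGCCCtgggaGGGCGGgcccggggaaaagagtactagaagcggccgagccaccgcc
Postn: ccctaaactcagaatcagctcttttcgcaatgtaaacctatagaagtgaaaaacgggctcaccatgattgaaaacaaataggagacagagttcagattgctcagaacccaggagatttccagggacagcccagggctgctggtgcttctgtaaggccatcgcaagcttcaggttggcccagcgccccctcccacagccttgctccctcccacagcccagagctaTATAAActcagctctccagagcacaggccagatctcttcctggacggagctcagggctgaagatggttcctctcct
Sparc: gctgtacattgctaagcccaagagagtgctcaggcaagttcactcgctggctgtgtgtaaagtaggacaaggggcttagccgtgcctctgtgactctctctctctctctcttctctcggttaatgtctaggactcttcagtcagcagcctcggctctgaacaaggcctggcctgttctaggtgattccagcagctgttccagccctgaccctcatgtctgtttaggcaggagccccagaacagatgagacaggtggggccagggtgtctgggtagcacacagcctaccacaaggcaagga
Thbs4: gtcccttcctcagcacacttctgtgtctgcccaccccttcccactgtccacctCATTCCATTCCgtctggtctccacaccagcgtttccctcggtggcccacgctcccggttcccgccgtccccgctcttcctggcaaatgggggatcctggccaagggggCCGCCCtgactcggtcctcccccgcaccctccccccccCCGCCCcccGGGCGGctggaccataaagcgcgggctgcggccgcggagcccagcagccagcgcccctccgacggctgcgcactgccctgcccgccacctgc

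The Postn window held a TATA box that began 26 bases before the start, and the Lgals3 window held no TATA match but a CCAAT match 167 bases before the start and a GC box on either side of it. The Thbs4 window held a pair of MCAT matches sharing 1 base, which began 197 and 192 bases before the start, and 3 GC boxes nearer to it. The Sparc window matched none of the 7 motifs. Over all windows, a TATA box was found for 4 of the 8 genes (Postn, Spp1, Thbs2 and Tnc; 13.6% of 32851 promoters of the same length hold one), CCAAT for 5 (37.4%), a GC box for 4 (35.7%), MCAT for Thbs4 alone (14.7%) and RUNX for Spp1 alone (5.27%). AP-1 (7.81%) and the CArG box (1.63%) were found for 0 of 8. The shares count windows, while some of the 8 genes had 2 windows. Counted by window, TATA, CCAAT and GC box matches each lay in 5 of 11. The TATA matches of Spp1, Thbs2 and Tnc began 126 to 211 bases before the start, further off than that of Postn. These matches are letters in a window and not sites shown to be bound, and the motifs were picked after the sequences had been read.

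In adult cardiomyocytes the RPKM of all 10 genes were higher in each icKO sample than in any Ctrl sample. Across the table, 46.1% of the 16289 genes with a value above 0 were placed in that way and 15.1% in the opposite way; since the genes were chosen on this contrast, the count of 10 is given only as a description. Their median log2 fold change, on the scale of log2(RPKM + 0.1), was 2.89, against 0.36 over all 16289 genes. Fewer cells of a type and less RNA per cell cannot be told apart in such bulk samples, and the same holds for more of either.

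**Figure D1:**
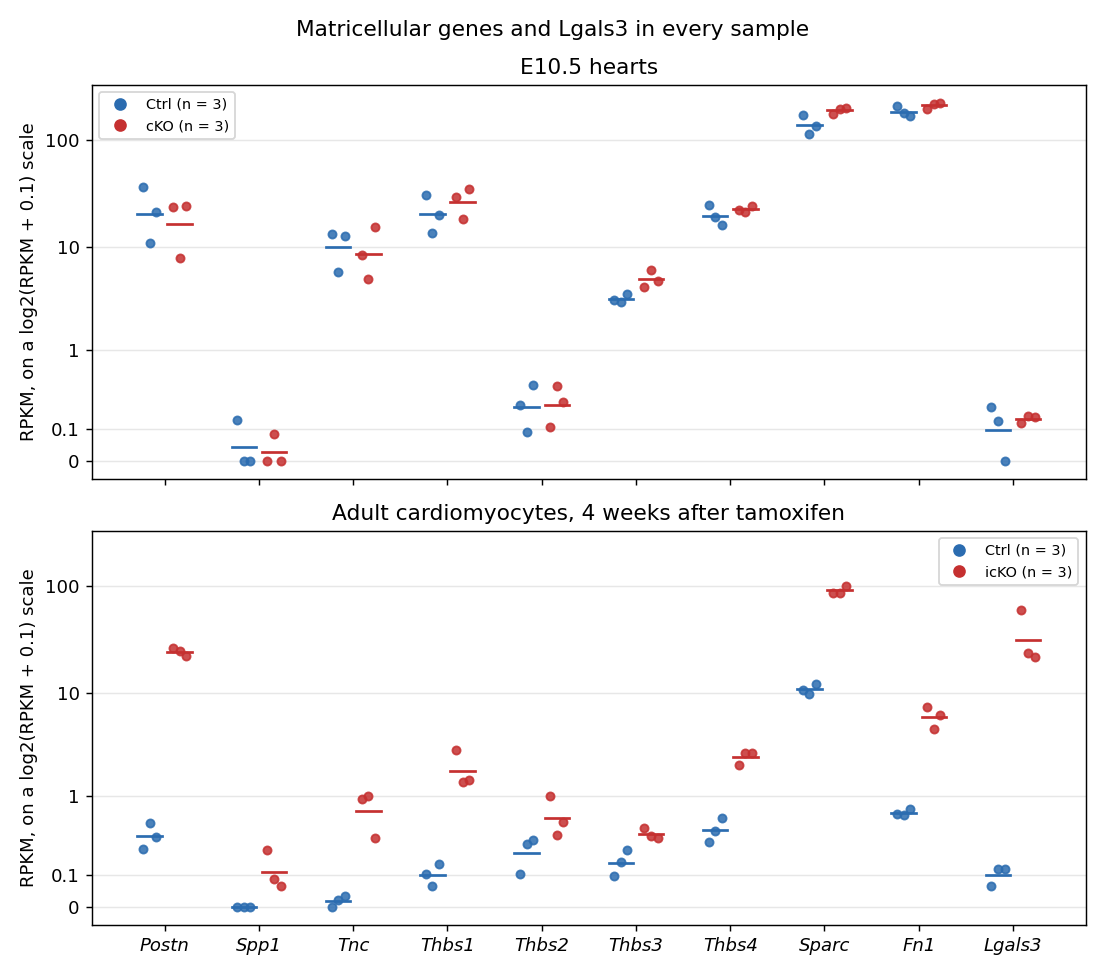
RPKM of the 10 genes in each sample at E10.5 (top) and 4 weeks after tamoxifen (bottom), on a log2(RPKM + 0.1) scale; blue points are Ctrl, red points cKO or icKO, and bars are means of 3 samples on that scale. At E10.5 the colours overlap for all genes but Thbs3 and Sparc, and at 4 weeks they are apart for all 10.

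Galectin 3 showed the widest separation. Lgals3 (ENSMUSG00000050335.17, chr14:47367751-47386160, plus strand) had RPKM of 0.055, 0.124 and 0.128 in the 3 Ctrl samples, which correspond to 1, 3 and 3 reads, and of 59.96, 23.9 and 21.9 in the icKO samples. A gene at the limit of detection in Ctrl was thus among the well expressed ones in every icKO sample, and its level in icKO replicate 1 stood above that in the other icKO samples. The log2 fold change was 7.31 (SE 0.497, n = 3 and 3) and 6.85 without icKO replicate 1. From the summed reads, 7 in Ctrl and 2377 in icKO, the ratio scaled to depth was 355, with a 95% exact interval of 172 to 884 that covers counting error only.

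Periostin followed a like course with less spread. Postn (ENSMUSG00000027750.16, chr3:54361109-54391037, plus strand) had RPKM of 0.249, 0.504 and 0.348 in Ctrl and of 26.2, 25.0 and 22.0 in icKO, so that the lowest icKO sample lay far above the highest Ctrl sample. Its log2 fold change was 5.75 (SE 0.240), and the ratio of the group means was 66.5.

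Sparc was the most abundant of the 10 genes in both adult groups. Sparc (ENSMUSG00000018593.13, chr11:55394500-55423183, minus strand) had RPKM of 10.6, 9.84 and 12.1 in Ctrl and of 86.9, 87.6 and 102 in icKO. The samples of a group lay close together and the groups far apart, with a log2 fold change of 3.07 (SE 0.114) and a ratio of means of 8.49. It made up 81.8% to 87.3% of the summed RPKM of the 10 genes in Ctrl, and 46.2% to 64.7% in icKO, where galectin 3 and periostin took most of the rest.

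Fibronectin, which integrins assemble into fibrils, was low in adult Ctrl. Fn1 (ENSMUSG00000026193.15, chr1:71585520-71653200, minus strand) had RPKM of 0.634, 0.628 and 0.718 in Ctrl and of 7.34, 4.48 and 6.14 in icKO, a log2 fold change of 2.98 (SE 0.211) and a ratio of means of 9.07. The Ctrl samples were nearly equal and the icKO samples varied more.

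Of the thrombospondins, Thbs4 and Thbs1 were the furthest apart. Thbs4 (ENSMUSG00000021702.7, chr13:92751590-92794818, minus strand) had RPKM of 0.308, 0.409 and 0.572 in Ctrl and of 2.04, 2.64 and 2.67 in icKO (log2 fold change 2.29, SE 0.241). Thbs1 (ENSMUSG00000040152.8, chr2:118111876-118127133, plus strand), whose product activates latent TGF-beta, had RPKM of 0.103, 0.058 and 0.151 in Ctrl and of 2.85, 1.38 and 1.44 in icKO (log2 fold change 3.24, SE 0.376). Thbs1 was highest in icKO replicate 1, whereas Thbs4 was lowest there. Mean RPKM over the 6 samples had to exceed 1 for a gene to enter the fit; Thbs4 lay just inside this limit at 1.44 and Thbs1 just outside at 0.997.

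The remaining thrombospondins were near the floor in Ctrl and stayed low in icKO. Thbs2 (ENSMUSG00000023885.9, chr17:14665500-14694235, minus strand) had RPKM of 0.102, 0.288 and 0.318 in Ctrl and of 0.988, 0.373 and 0.521 in icKO (log2 fold change 1.10, SE 0.486). Thbs3 (ENSMUSG00000028047.11, chr3:89215180-89226837, plus strand) had RPKM of 0.095, 0.161 and 0.241 in Ctrl and of 0.446, 0.356 and 0.341 in icKO (log2 fold change 0.89, SE 0.252). For both genes the highest Ctrl sample came close to the lowest icKO sample, and after median-ratio scaling the groups of Thbs2 overlapped, with a log2 fold change of 0.68, while those of Thbs3 stayed apart at 0.51.

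Tenascin C and osteopontin rested on few reads. Tnc (ENSMUSG00000028364.15, chr4:63959785-64047015, minus strand) had RPKM of 0, 0.016 and 0.025 in Ctrl and of 0.916, 1 and 0.341 in icKO, from 5 and 258 reads in all, and the ratio scaled to depth was 53.9 (95% exact interval 22.8 to 168, counting error only). Spp1 (ENSMUSG00000029304.14, chr5:104435118-104441050, plus strand), a secreted ligand of CD44 and αv integrins, was at 0 in all 3 Ctrl samples and had RPKM of 0.241, 0.081 and 0.057 in icKO, which are 6, 2 and 1 reads. Set against a floor of 3 reads over the Ctrl group, the 9 icKO reads gave a ratio scaled to depth of 3.14. That value takes the icKO reads as exact and so is not a lower limit. Only icKO replicate 1 lay above the level of 3 reads in its own library.

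Among the icKO samples, replicate 1 was the highest for 7 of the 10 genes (Postn, Spp1, Thbs1, Thbs2, Thbs3, Fn1 and Lgals3), while Sparc and Thbs4 were highest in replicate 3 and Tnc in replicate 2. Fibroblast and macrophage markers were higher in the icKO samples as well, and other cell types varied. The 8 fibroblast markers (Pdgfra, Tcf21, Dcn, Lum, Ddr2, Dpt, Col1a1 and Col1a2) summed to RPKM of 4.56 to 7.89 in Ctrl and to 44.7, 28.2 and 30.9 in icKO replicates 1, 2 and 3, and all 8 were higher in each icKO sample than in any Ctrl sample, as were 46.1% of all genes. The 8 macrophage markers summed to 2.09 to 2.99 in Ctrl and 5.55 to 6.93 in icKO, with 6 of the 8 apart in the same direction, and Ptprc, the pan-leukocyte marker, at 0 to 0.054 in Ctrl and 0.023 to 0.147 in icKO. Endothelial markers summed to 8.996 to 22.3 in Ctrl and 23.7 to 37.1 in icKO, with 3 of 7 apart. Mural markers overlapped in their sums, at 47.0 to 72.2 and 47.3 to 79.2, with 4 of 6 apart higher and Acta2, the most abundant, overlapping; without it the sums were 5.84 to 15.0 and 19.7 to 36.5. The sums of epicardial, endocardial and erythroid markers overlapped, with 2 of 5, 0 of 2 and 0 of 5 markers apart higher and Alas2 apart lower. The part of these cells in the levels of the 10 genes was not tested.

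**Figure D2:**
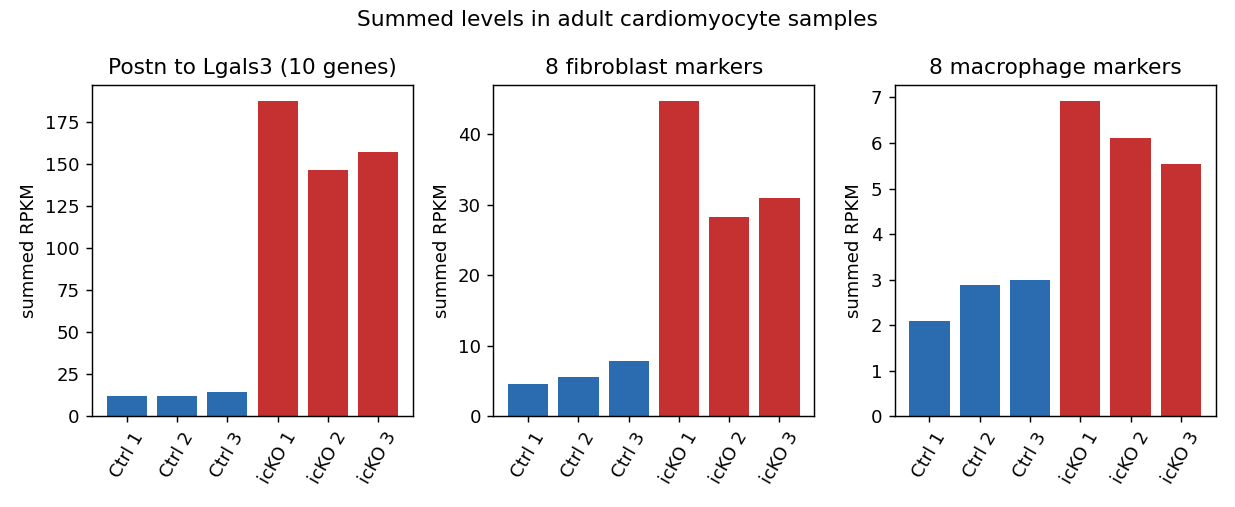
Summed RPKM in each adult sample of the 10 genes, of 8 fibroblast markers and of 8 macrophage markers; blue bars are Ctrl and red bars icKO, and each panel has its own axis from 0. The 3 icKO bars are above the 3 Ctrl bars in each panel, from 147 to 188 against 12.03 to 14.6 for the 10 genes, and icKO replicate 1 is the highest in all 3 panels. Of the marker sets not drawn, endothelial and mural sums were highest in icKO replicate 3. Epicardial, endocardial, erythroid and cardiomyocyte sums were highest in icKO replicate 2.

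In E10.5 hearts the same genes fell into a different order of level. Fn1, with RPKM of 209, 182 and 169.6 in Ctrl, and Sparc, with 173, 115 and 138, were the most abundant and overlapped each other. Postn (36.3, 10.8 and 21.5), Thbs1 (31.0, 13.5 and 20.2) and Thbs4 (24.8, 19.0 and 16.1) came next and could not be separated by their spread, followed by Tnc (13.2, 5.78 and 12.5) and Thbs3 (3.12, 3.00 and 3.54). Thbs2 (0.085 to 0.408, 75 reads in all) was low but above the floor of 3 reads in every sample, while Lgals3 (0 to 0.217, 9 reads in all) and Spp1 (0 to 0.141, 4 reads in all) were close to or under it.

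At this stage the genotypes overlapped for most of the genes. The groups did not overlap for 2 of the 10 genes, both higher in cKO, where 5.52% of the 16562 genes with a value above 0 were placed in that way and 17.3% in the opposite way. Thbs3 had RPKM of 4.13, 6.06 and 4.77 in cKO, a log2 fold change of 0.60 (SE 0.172). Sparc had RPKM of 178, 199 and 199.9 in cKO, a log2 fold change of 0.45 (SE 0.178), and its lowest cKO sample was only just above its highest Ctrl sample.

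The other 8 genes overlapped between the genotypes. Fn1 had RPKM of 198, 221 and 225 in cKO (log2 fold change 0.20, SE 0.106), and Thbs4 had 22.2, 21.1 and 24.5 (0.20, SE 0.192). Both overlapped through Ctrl replicate 1, the Ctrl sample that was highest for 8 of the 10 genes. Without it, or after median-ratio or quantile scaling, 4 genes were apart in the direction of cKO. The share of all genes so placed was not counted under these settings, so the 4 has no background beside it. The overlap of Fn1 rested on cKO replicate 1 as well, since Fn1 was also apart when only that sample was left out. Thbs1 had RPKM of 29.6, 18.2 and 35.0 in cKO (0.38, SE 0.445). Thbs2 had 0.106 to 0.402 in cKO, from 74 reads, and the ratio scaled to depth was 1.05 (95% exact interval 0.751 to 1.47, counting error only). Lgals3 (0.124 to 0.165, 10 reads in all) and Spp1 (0 to 0.080, 2 reads in all) were also low in cKO, with ratios of 1.18 (0.432 to 3.29) and 0.532 (0.0481 to 3.71). Differences within these intervals, which cover counting error only, could not be detected at this depth.

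Postn and Tnc, the genes of cushion mesenchyme, varied more within a genotype than between genotypes. Postn had RPKM of 24.0, 7.81 and 24.2 in cKO (log2 fold change −0.30, SE 0.736) and Tnc had 8.40, 4.93 and 15.2 (−0.20, SE 0.601). Replicate 2 was the lowest sample in both genotypes for Postn, for Tnc and for Thbs1. The labels do not say that a replicate number marks a shared litter or day. Summed over the 10 genes, RPKM were 349 to 491 in Ctrl and 464 to 529 in cKO.

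Mural markers were higher in cKO, with summed RPKM of 442 to 522 against 362 to 395 in Ctrl. Of the 6, 4 were apart in that direction, as were 5.52% of all genes. Acta2 made up 95.6% to 96.3% of these sums, and the other 5 summed to 19.6 to 20.4 in cKO and 14.5 to 16.97 in Ctrl. The summed level of the 8 cardiomyocyte markers was lower, at 2665 to 3296 against 3749 to 6211. Myl2 and Ryr2 were apart in that direction, as were 17.3% of all genes. Without Myl2 the sums overlapped, at 1345 to 1699 and 1432 to 2079. The fibroblast markers overlapped in their sums at 41.1 to 48.0 and 42.0 to 66.5, with Tcf21 apart lower in cKO (log2 fold change −0.63), and the epicardial marker Tbx18 was apart lower as well (−0.95, SE 0.198, limma adjusted p = 0.0328). Dpt, Fcgr1 and C1qa were at 0 in all 3 Ctrl hearts. The part of these differences in the levels of Sparc and Thbs3 was not tested.

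**Figure D3:**
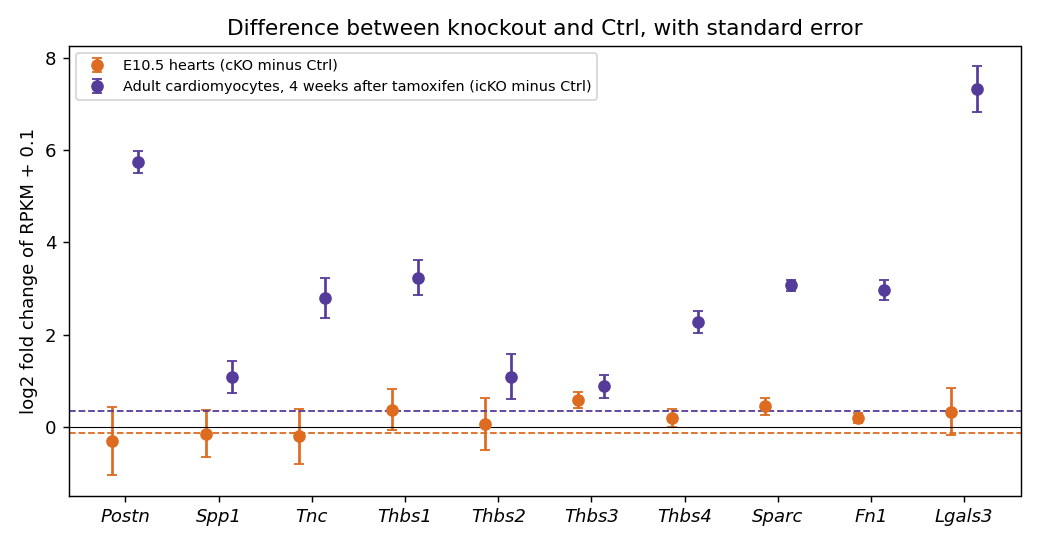
Difference between knockout and Ctrl of each gene (log2 fold change of RPKM + 0.1, mean of 3 minus mean of 3 samples) with its standard error, at E10.5 (orange) and 4 weeks (purple); dashed lines are the medians over all genes with a value above 0. The 4-week values run from 0.89 for Thbs3 to 7.31 for Lgals3, all above the dashed line at 0.36, and the E10.5 values lie between −0.30 and 0.60.

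The tables of the stages were normalised apart from each other and come from whole hearts and from isolated cells, so levels at the stages are set side by side without a test. Postn had a mean RPKM of 22.9 in E10.5 Ctrl hearts, 0.367 in adult Ctrl cardiomyocytes and 24.4 in adult icKO cardiomyocytes. The adult icKO mean of Sparc, 92.1, was 64.8% of its E10.5 Ctrl mean of 142. For the other genes with a clear embryonic level, the adult icKO mean was a small share of the E10.5 Ctrl mean, namely 12.3% for Thbs4, 11.8% for Thbs3, 8.77% for Thbs1, 7.16% for Tnc and 3.20% for Fn1. Lgals3 was unlike these, with means of 0.118 in E10.5 Ctrl, 0.149 in E10.5 cKO, 0.102 in adult Ctrl and 35.3 in adult icKO. In adult icKO the order of mean level was Sparc, Lgals3, Postn, Fn1, Thbs4, Thbs1, Tnc, Thbs2, Thbs3 and Spp1; the ranges of Lgals3 and Postn overlapped, as did those of Thbs4 and Thbs1, of Tnc and Thbs2 and of Thbs2 and Thbs3.

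The 19 other matricellular genes listed moved in both directions in adult icKO cardiomyocytes. Of the 6 that entered the fit, 3 rose and 2 fell (adjusted p below 0.05 and a log2 fold change past 1 in that direction), where limma called 28.0% of all genes tested higher and 8.45% lower (11.3% and 15.9% after median-ratio scaling), and the median log2 fold change of the 6 was 1.06. Wisp2, a CCN protein, had RPKM of 0 to 0.133 in Ctrl and 2.22 to 2.70 in icKO (log2 fold change 4.16, SE 0.369, limma adjusted p = 9.06e-06), and Wisp1 of 0.725 to 0.916 and 2.94 to 6.49 (2.39, SE 0.267, adjusted p = 3.72e-05). Sparcl1, the closest relative of Sparc, had 1.87 to 7.46 in Ctrl and 7.17 to 12.8 in icKO (1.13, SE 0.432, adjusted p = 0.0369). The Sparcl1 ranges overlapped, and it was called in 6 of 15 settings, the reported one included, with adjusted p from 0.00265 to 0.278.

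The genes that fell were Cyr61, also a CCN protein and the most abundant of the list in Ctrl, and Smoc2, a calcium-binding relative of Sparc. Cyr61 had RPKM of 95.2 to 148 in Ctrl and 43.4 to 53.1 in icKO, and fell by 1.19 on the log2 scale (SE 0.163, limma adjusted p = 0.000133). Smoc2 had 3.45 to 5.06 in Ctrl and 0.928 to 1.38 in icKO, and fell by 1.69 (SE 0.200, adjusted p = 5.31e-05). Ctgf had a log2 fold change of 0.98 (SE 0.393, adjusted p = 0.0442), short of the fold required, and its Ctrl samples spread from 28.9 to 96.9, the highest of them replicate 2. Without that replicate Ctgf was called higher, at 1.53 (limma adjusted p = 8.40e-05; 8.40e-05 to 0.351 over all settings), and the Cyr61 difference was −0.99, no longer beyond 1.

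The receptors for these proteins that were called all rose. Of 15 listed, 10 entered the fit, 7 rose and 0 fell, with a median log2 fold change of 1.503. Of all genes tested, 28.0% were called higher and 8.45% lower (11.3% and 15.9% after median-ratio scaling). An unadjusted limma p below 0.05 was found for 9 of the 10 receptors and for 7625 of all 9517 genes tested. CD44, which binds osteopontin and hyaluronan, had RPKM of 1.18 to 2.17 in Ctrl and 8.99 to 17.8 in icKO (Cd44, log2 fold change 2.92, SE 0.273, limma adjusted p = 1.23e-05). Itga5, the α subunit of the fibronectin receptor, had 7.33 to 11.7 and 44.6 to 51.3 (2.34, SE 0.156, adjusted p = 1.86e-06). Itgav, the αv subunit that pairs with several β subunits to bind periostin, osteopontin and fibronectin, had 3.79 to 4.35 and 15.6 to 20.5 (2.10, SE 0.120, adjusted p = 8.93e-07). Itgb5 (1.58), Sdc4 (1.52), Lrp1 (1.49) and Itgb1 (1.44) also rose.

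The smaller of these receptor changes depended on scaling. After median-ratio scaling 4 receptors rose, since Lrp1 (0.98), Sdc4 (0.99) and Itgb1 (0.90) came to lie short of a log2 fold change of 1, and 1 fell. The latter was Cd36, a thrombospondin receptor that also carries fatty acids, with RPKM of 314 to 330 in Ctrl and 159 to 176 in icKO. Its log2 fold change was −0.94 (SE 0.0709, limma adjusted p = 3.51e-06) without rescaling and −1.48 with it. Cd47, the other thrombospondin receptor, had a log2 fold change of 0.29 (adjusted p = 0.0565), which did not pass the test.

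The other galectins moved in both directions. Of 10 genes (9 galectins or galectin-like genes and the galectin 3 binding protein), 8 entered the fit, 1 rose and 2 fell, against the same shares of 28.0% higher and 8.45% lower over all genes tested. Lgals2 had RPKM of 0.965 to 1.501 in Ctrl and 6.43 to 8.42 in icKO (log2 fold change 2.505, SE 0.178, limma adjusted p = 2.59e-06). Lgals4 fell by 4.09 on the log2 scale (SE 0.212, adjusted p = 6.00e-07) and Lgals6 by 4.01 (SE 0.246, adjusted p = 1.23e-06), from 10.1 to 14.9 and 11.2 to 17.3 in Ctrl to 0.454 to 0.791 and 0.486 to 0.982 in icKO. Lgals4 and Lgals6 are near-identical copies, so the reads may be split between them and their single values are uncertain. Lgals1, the most abundant galectin, had RPKM of 53.2 to 62.2 in Ctrl and 62.7 to 97.6 in icKO, with a log2 fold change of 0.45 below the median of all genes, and Lgals3bp had 0.07.

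**Figure D4:**
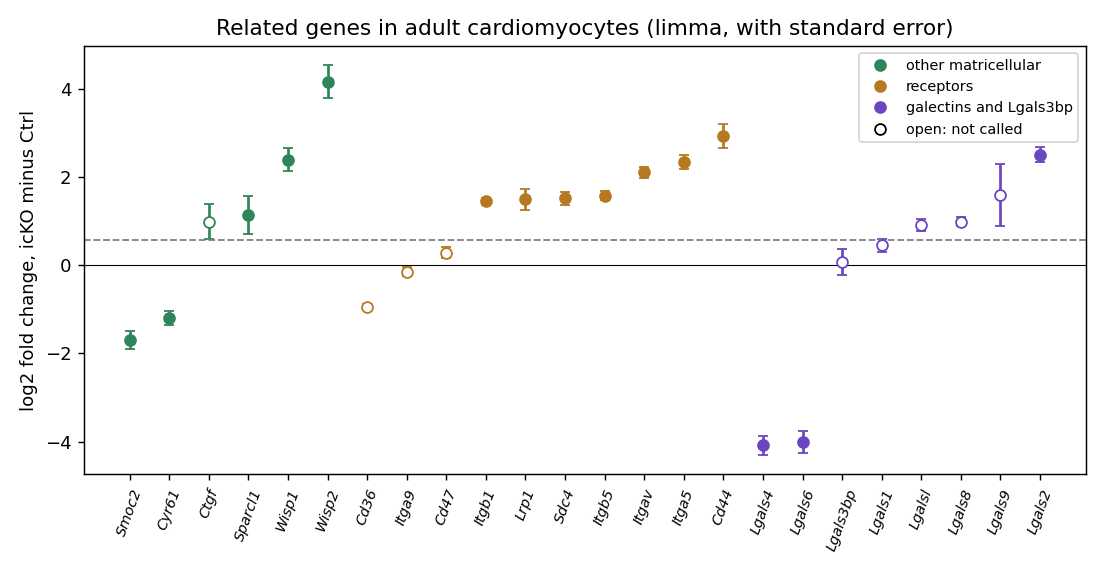
Log2 fold change (icKO minus Ctrl, limma on log2 of RPKM + 0.1) with standard error of the other matricellular genes, receptors and galectins that entered the fit at 4 weeks; filled points were called, open points were not, and the dashed line is the median of all genes tested, 0.57. The 7 filled receptors all lie above the line, while the matricellular genes and galectins have filled points on both sides of it.

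At E10.5 none of these lists held a called gene: limma called 0 of 5 other matricellular genes, 0 of 14 receptors and 0 of 5 galectins tested, where it called 0.239% of all genes higher and 0.542% lower. At an unadjusted p below 0.05 it passed 2, 7 and 1 of them, against 2566 of all 10885 genes tested. At an adjusted p below 0.05, without the fold required, it passed 0, 3 and 0, and the count over all genes at that threshold is not given here. The 3 receptors were Cd44, with RPKM of 7.30 to 9.19 in Ctrl and 14.6 to 17.5 in cKO (log2 fold change 0.86, SE 0.133, adjusted p = 0.0181), Itgav (0.59, SE 0.113, adjusted p = 0.0275) and Itga5 (0.48, SE 0.103, adjusted p = 0.0375). The groups of each of these 3 genes did not overlap, but none of the 3 stayed under 0.05 in every setting. The limma adjusted p rose to 0.0615 for Cd44, above 0.05 when Ctrl replicate 3 or cKO replicate 2 was left out. It rose to 0.113 for Itgav, above 0.05 without Ctrl replicate 2 or 3 or cKO replicate 1 or 2, and to 0.134 for Itga5, above 0.05 without any one replicate but cKO replicate 3; both also lost it without a trend, and Itga5 without a filter or with the replicate number as a block. The lowest adjusted p over the other matricellular genes was that of Wisp1 (−0.88, SE 0.284, adjusted p = 0.103), with 5.03 to 9.11 in Ctrl and 3.13 to 6.05 in cKO.

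The genes most like Lgals3 over the 6 adult samples, by the root mean square difference of log2(RPKM + 0.1) after each gene was centred, were Rnd1 (0.51), Gpnmb (0.51) and Hspa1b (0.55) among 9516 genes. Each was near 0 in Ctrl, with RPKM of 0.034 to 0.134, 0.015 to 0.040 and 0.027 to 0.104, and well expressed in icKO, with 36.3 to 41.2, 9.46 to 16.8 and 11.5 to 18.3. Those most like Postn were Carhsp1 (0.18), Nlrc3 (0.29) and S100a11 (0.36). These distances mostly follow the gap between the groups that all these genes share.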

How the data were processed

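RNA-seq was analysed from 12 samples in 4 groups of 3, as named in the labels. The authors deposited RPKM for each sample in 1 table per stage, made by mapping reads to GRCm38/mm10 and counting them per gene; the submitters' processing notes list cutadapt 2.6, STAR 2.5.3a, HOMER 4.11.1 and DESeq2 1.12.4. The gene annotation, the use of strand in counting and the reads to which the RPKM were scaled are not given in the sources used here. Without strand, reads of Tnc, Thbs1, Thbs3 and Fn1 cannot be told apart from those of the antisense genes 8030451A03Rik, Gm29233, Mtx1 and Apol7d where exons overlap (104 to 197 bases), and Spp1 shares 181 bases with Gm42793. The tables' own fold changes and FDR columns hold the comparison of the authors and were not used.

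Reads per library were estimated from the spacing of values of up to 12 reads, with gene lengths from the longest RefSeq-linked transcript; 57.0% to 64.6% of these values came within 0.1 of whole reads, against 20% by chance. Intervals and floors (3 reads) cover counting error only. Each stage was fitted alone with limma 3.58.1 in R 4.3.3 (lmFit, and eBayes with trend). The values were log2(RPKM + 0.1), only genes whose mean RPKM exceeded 1 entered, and p-values were adjusted by Benjamini-Hochberg. Calls needed an adjusted p below 0.05 and a log2 fold change past 1 in either direction. The pseudocount understates the fold change of low genes. Nothing says whether samples come from separate animals, so p-values measure the spread between these samples only. The smallest two-sided p of an exact permutation test of 3 against 3 is 0.1, so limma was used. The fit was tested on simulated tables.

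The 10 genes and the lists of related genes and markers were chosen with earlier results of these data known. All 10 are named; of the related genes, those called, up to 8 per list and stage by size, and others as examples chosen after their values were seen. Likeness to Lgals3 and Postn was taken over genes with mean RPKM above 1, the 3 nearest being named. Alternatives were pseudocounts of 1 and 0.01, no filter, mean RPKM above 5, median-ratio scaling, quantile normalization, eBayes without trend, the replicate number as a block, and leaving out each replicate; those for counts of genes whose groups do not overlap and for galectins were added after seeing the data. Motifs were searched on both strands in RefSeq promoters of GRCm38.p6. Positions are from the GRCm38 annotation (GENCODE). Tables were handled with Python 3.11.15 and pandas 2.3.3.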

Additional observations from a re-analysis of the deposited data

Results flagged for a closer look

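For 3 genes of the lists, every knockout sample lay on one side of the controls at E10.5 and on the opposite side at 4 weeks; the difference between the stages was not tested. C1qb, a complement component of macrophages, had a log2 fold change of −1.33 at E10.5, where all values were at most 0.237 RPKM, and of 1.40 at 4 weeks. Lgalsl, a galectin-like gene, had −0.31 at E10.5 (8.52 to 9.02 RPKM in Ctrl and 6.47 to 7.60 in cKO) and 0.90 at 4 weeks (4.61 to 4.94 in Ctrl and 7.95 to 11.2 in icKO). Tcf21, a transcription factor of epicardium and fibroblasts, had −0.63 at E10.5 and 2.08 at 4 weeks, where its RPKM were 0 to 0.123 in Ctrl and 0.337 to 0.611 in icKO. Groups of 3 samples are too small for a check of single outlying samples.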

How the results depend on the processing

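No difference of the 10 genes whose groups were apart changed direction under any alternative, and at 4 weeks all 10 stayed higher in icKO by mean, with 85 of their 110 alternative values within 1 SD of the reported one. The pseudocount moved low genes most: Lgals3 ranged from 4.89 to 8.21, Tnc from 0.77 to 5.05 and Spp1 from 0.17 to 3.53. At 4 weeks 9 of the 10 genes were apart after median-ratio or quantile scaling. At E10.5 the count apart was 4 under either scaling, against 2, and 2 to 4 when a replicate was left out. The share of all genes apart was not counted under these alternatives, so these counts have no background beside them. Of all genes, 2668 were called higher and 804 lower at 4 weeks; these counts were 1078 and 1518 with median-ratio scaling, 1192 and 1349 with quantile normalization, and 1687 and 454 for mean RPKM above 5. The share called higher was 76.8% of the calls, and 41.5% with median-ratio scaling. The paper, with DESeq2 and shrunken fold changes, reports more genes lowered than raised in adult icKO cardiomyocytes. That balance is the opposite of the fit without rescaling and the same as with median-ratio scaling. At E10.5, 26 genes were called higher and 59 lower; a pseudocount of 1 gave 12 and 36, no filter 17 and 35, and mean RPKM above 5 gave 9 and 34, while lower calls were 37 with quantile normalization and 38 without trend. Leaving out replicates gave 9 to 36 higher and 18 to 102 lower at E10.5, the most without cKO replicate 3, which also called Wisp1 lower (0 to 1 of the other matricellular genes). At 4 weeks the other matricellular genes called higher were 3, but 5 without a filter, 1 for mean RPKM above 5 and 1 to 3 when a replicate was left out, the fewest without icKO replicate 1; those called lower were 2, but 1 for mean RPKM above 5 and 1 to 2 with a replicate left out (1 without Ctrl replicate 2, when Cyr61 lost its call). Fewer of the other matricellular genes were also called higher with a pseudocount of 1, either scaling or no trend, where Sparcl1 lost its call. Receptors called higher were 7, and 4 with median-ratio scaling, where 1 was called lower in place of 0. Without a filter Itgb3 and Stab1 were added, and without Ctrl replicate 2 Stab1 alone. Lost from the 7 were Sdc4 with quantile normalization, Lrp1 with a pseudocount of 1, and Lrp1 for mean RPKM above 5, where it did not enter the fit. The cause of these shifts was not tested. Of the called related genes, 189 of 204 alternative values kept their call and 15 lost it, 9 of them of Sparcl1.

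The replicate number was also fitted as a block. Same-numbered samples deviated together with correlations of 0.01, 0.10 and −0.07 at E10.5 and 0.15, 0.04 and 0.05 at 4 weeks. Samples with different numbers gave −0.18 to 0.13 at E10.5 and −0.13 to 0.08 at 4 weeks. Not every sample correlated best with its own number. With so few samples per group, these values cannot show whether a number marks a shared litter or day. The block gave 32 higher and 61 lower at E10.5 and 2672 and 805 at 4 weeks, and changed no count of the other matricellular genes or receptors called. Depths of 13.7 to 19.98 M reads at E10.5 left differences of Spp1 and Lgals3 undetectable within their counting intervals.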
